A study of Homo sapiens with 36 samples.

Results

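CDK1, the mitotic cyclins CCNA2, CCNB1 and CCNB2, the phosphatases CDC25A, CDC25B and CDC25C, the inhibitory kinases WEE1 and PKMYT1 and the phosphatase CDKN3 were followed in neuroblastoma cells after knockdown of the histone deacetylase HDAC11. All probes whose annotated symbol was one of these 10 genes were taken, which gave 15 of the 47323 probes of the table and 10 of its 20045 genes. RNA of the cell lines BE(2)-C and IMR-32 had been hybridised to 36 Illumina HumanHT-12 bead arrays, each with bulk RNA of cultured cells. Cells of each line had been transfected with HDAC11 siRNA no. 1 (Ambion), HDAC11 siRNA no. 2 (Qiagen) or the negative control siRNA AllStars (Qiagen) and harvested after 42, 48 or 54 h, with 2 replicate arrays for each line, siRNA and time. Each line thus has 6 arrays for each siRNA. Both lines carry amplified copies of the MYCN oncogene. BE(2)-C came from a bone marrow metastasis after chemotherapy, and IMR-32 carries a partial amplification of the receptor kinase gene ALK. Each is 1 established line, and the labels do not say whether the 2 replicates were separate cultures, so p-values measure only the spread between these arrays.

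CDK1 is the cyclin-dependent kinase that drives cells from G2 phase into mitosis, and it is active only when bound to a cyclin. Cyclin A2, encoded by CCNA2, acts in S phase and G2, and cyclins B1 and B2, encoded by CCNB1 and CCNB2, accumulate in G2 and are destroyed at anaphase. WEE1 and PKMYT1 place inhibitory phosphates on CDK1, and the CDC25 phosphatases remove them, so that these opposed enzymes set the moment of mitotic entry. CDKN3 is a phosphatase that removes the activating phosphate of cyclin-dependent kinases. Many of these genes are transcribed in waves, with little RNA in G1 phase and the most in S phase or G2. In RNA of a whole culture, fewer cells in the phases that carry such RNA and less RNA per cell cannot be told apart. By microscopy, the paper reports a larger share of mitotic cells in both lines at the middle harvest time after the knockdown. By flow cytometry, it reports more cells in G2 or mitosis in the line from the bone marrow metastasis. How these shares relate to the RNA changes below was not tested.

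The 15 probes lay above the background on 34 to 36 of the 36 arrays. Per array, 36.1% to 41.8% of all probes were detected at median signals of 104 to 135, and replicate arrays correlated at r = 0.985 to 0.994. The probe of HDAC11 was detected on only 2 arrays, both from control IMR-32 cells, and its log2 differences from the control ranged from -0.090 to -0.029 (adjusted p = 0.425 to 0.925), so the arrays carry no usable measure of the knockdown itself. All 7 adrenergic neuroblastoma markers with a probe were detected in both lines, although dopamine beta-hydroxylase (DBH) was detected on only 11 of the 18 IMR-32 arrays. Their summed intensity was 32874 to 37697 in BE(2)-C controls, 37011 to 43515 with siRNA no. 1 and 36220 to 41570 with siRNA no. 2, and 25613 to 27684, 27306 to 32017 and 28355 to 31513 in IMR-32. MYCN was the largest part, at 19621 to 24083 in BE(2)-C and 18574 to 23649 in IMR-32. Log2 changes with an adjusted p below 0.05 were as follows. In BE(2)-C, HAND2 (0.48), ISL1 (0.48) and DBH (0.63) rose with siRNA no. 1. PHOX2A (0.44), TH (0.79) and DBH (0.68) rose with siRNA no. 2 there. In IMR-32, PHOX2A (0.50), HAND2 (0.21) and GATA3 (0.52) rose with siRNA no. 1. With siRNA no. 2, TH (0.27) and MYCN (0.18) rose and DBH, detected on none of those arrays, fell (-0.32). Of 6 markers of mesenchymal cells, SNAI2 alone was detected on every array. The summed intensity of these 6 markers in BE(2)-C was 771 to 916 in the control, 865 to 957 with siRNA no. 1 and 766 to 843 with siRNA no. 2, with SNAI2 0.75 higher on the log2 scale (adjusted p = 6.96e-08) and CD44 at -0.56 (adjusted p = 1.96e-06) after siRNA no. 1, and CD44 at -0.28 (adjusted p = 0.0126) after siRNA no. 2. In IMR-32 the sums were 842 to 956, 774 to 875 and 821 to 897 in the same order, with YAP1, never detected in that line, at -0.17 (adjusted p = 0.0344) after siRNA no. 1. None of the 3 blood cell markers was detected on all arrays of any group, and the part of any marker in the results was not tested.

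After siRNA no. 1, RNA of the whole group fell: all 10 genes were lower than in the negative control in BE(2)-C and all 10 in IMR-32, by limma with Benjamini-Hochberg adjustment over all 47320 probes tested and an adjusted p below 0.05. Every one of the 15 probes was lower in both lines. With 1 array left out, 8 to 9 genes passed in BE(2)-C, where CDC25C, WEE1 or both were lost, and 10 in IMR-32. With an intensity trend and robust prior in limma, CDC25C passed in neither line (adjusted p = 0.0611 in BE(2)-C and 0.0607 in IMR-32). Over all probes, 7.5% were lower in BE(2)-C and 7.35% in IMR-32, and among the 11940 probes detected on all arrays 23.9% and 22.1% were. The median log2 difference of the 10 genes was -0.65 in BE(2)-C and -0.95 in IMR-32, against 0.0005 and 0.0012 over all probes. Here and below, a change is the log2 difference from the control averaged over the 3 times, given with its standard error, and values of a gene are those of its brightest probe unless another probe is named.

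**Figure D1:**
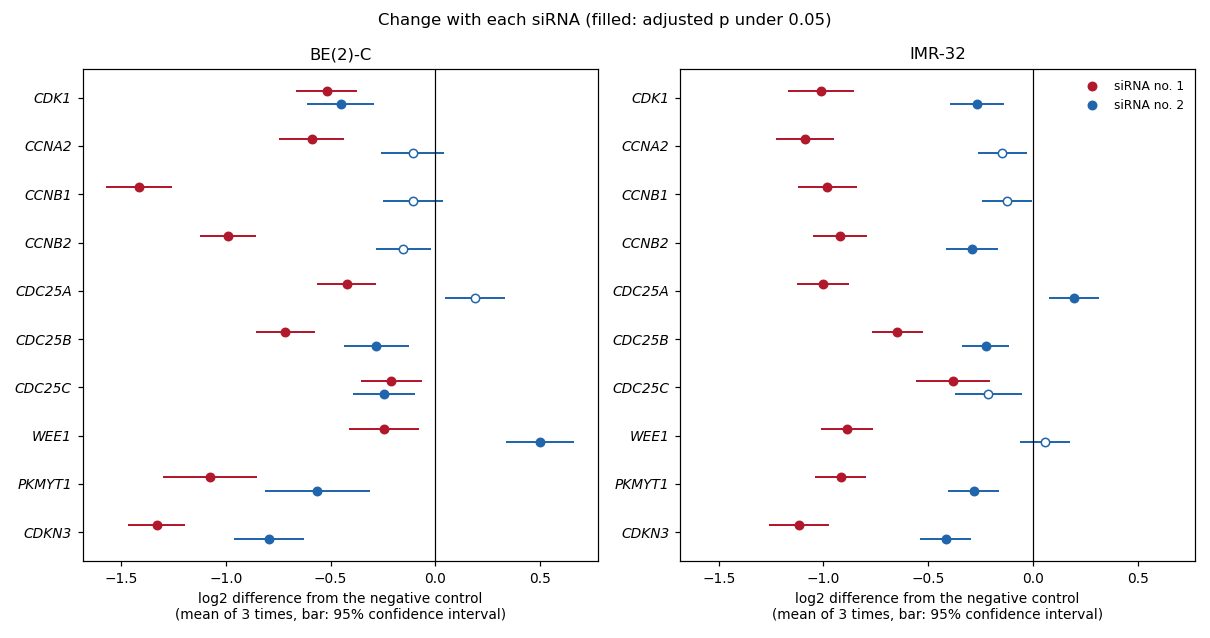
Log2 difference from the negative control of each gene, averaged over 3 times, for siRNA no. 1 (red) and siRNA no. 2 (blue) in BE(2)-C (left) and IMR-32 (right), with 95% confidence intervals and filled points where the adjusted p was below 0.05. All red points lie left of 0, from -1.41 to -0.21 in BE(2)-C and from -1.12 to -0.38 in IMR-32, while the blue points lie on both sides of 0.

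siRNA no. 2 did not lower the whole group. In BE(2)-C, 5 genes fell (CDK1, CDC25B, CDC25C, PKMYT1 and CDKN3), WEE1 rose and 4 did not pass the test, and over all probes 4.58% were lower and 4.24% higher. In IMR-32, 5 genes fell (CDK1, CCNB2, CDC25B, PKMYT1 and CDKN3), CDC25A rose and 4 did not pass the test, where 4.36% of all probes were lower and 3.83% higher. Among probes detected on all arrays, 14% were lower and 14.2% higher in BE(2)-C, and 12.5% and 13.1% in IMR-32. With 1 of the 10 genes higher in each line, the share raised was near that of detected probes. The median of the 10 genes was -0.20 in BE(2)-C and -0.22 in IMR-32, against 0.0031 and 0.0030 over all probes. The 6 control arrays of a line served for either siRNA, so the differences from the control are not independent. CDK1, CDC25B, PKMYT1 and CDKN3 thus had lower RNA after either siRNA in either line. CDC25C, at its brightest probe, passed the test with both in BE(2)-C, and CCNB2 with both in IMR-32. CCNA2, CCNB1, CDC25A and WEE1 fell with siRNA no. 1, and no fall of them passed the test with siRNA no. 2. For CCNA2 and CCNB1 in IMR-32, the unadjusted 95% interval with siRNA no. 2 still lay wholly on the side of a fall. The difference between the lines in the change with siRNA no. 2 did not pass the test for CCNB2 (0.14, adjusted p = 0.605) or CDC25C (-0.032, adjusted p = 0.959).

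The start regions of genes that rise and fall together in the cell cycle are known to carry shared letters: the CHR (TTTGAA, with TTCGAA as its variant), the CCAAT box (CCAAT) and E2F elements, for which the letters TTCCCGC were searched, together with TTCGCGC, the variant TTGCCGC and also TTGGCGC. RefSeq windows of 300 bases (GRCh38.p14), from 250 bases before to 50 after a start, were matched by gene symbol for 8 of the 10 genes, all but WEE1 and PKMYT1, and gave 15 windows because some genes have several starts. Both strands were searched, and an E2F element can overlap a CCAAT box or an E2F element of the other strand. All 8 genes had a CCAAT box in at least 1 window, 5 had a CHR and 5 had an E2F element. A gene with several windows has more places for a match, and no share by gene was computed over all genes. Of the 15 windows, 46.7% held a CHR, 73.3% a CCAAT box and 46.7% an E2F element, against 16.4%, 34.6% and 13.0% of all 35116 windows; several windows of 1 gene overlap, and a match in letters is a description and no proof of a working site. Of the windows below, that of CCNB1 belongs to the gene that fell most with siRNA no. 1 in BE(2)-C, those of CCNB2 and CDK1 hold both a CHR and CCAAT boxes near the start, that of CDC25A has E2F elements and no CHR, and that of CDKN3 belongs to the gene whose siRNA arrays all lay below the controls in both lines. They are written 5′ to 3′ on the strand of the gene, and capitals mark the CHR, CCAAT box and E2F letters on either strand.
CCNB1, chr5:69166900-69167199, plus strand: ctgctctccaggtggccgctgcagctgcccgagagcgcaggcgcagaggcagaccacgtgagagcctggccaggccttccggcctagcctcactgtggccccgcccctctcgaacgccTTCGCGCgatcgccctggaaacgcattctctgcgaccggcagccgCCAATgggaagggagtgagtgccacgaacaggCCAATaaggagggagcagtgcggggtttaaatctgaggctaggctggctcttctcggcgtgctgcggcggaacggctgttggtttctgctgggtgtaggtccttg
CCNB2, chr15:59104896-59105195, plus strand: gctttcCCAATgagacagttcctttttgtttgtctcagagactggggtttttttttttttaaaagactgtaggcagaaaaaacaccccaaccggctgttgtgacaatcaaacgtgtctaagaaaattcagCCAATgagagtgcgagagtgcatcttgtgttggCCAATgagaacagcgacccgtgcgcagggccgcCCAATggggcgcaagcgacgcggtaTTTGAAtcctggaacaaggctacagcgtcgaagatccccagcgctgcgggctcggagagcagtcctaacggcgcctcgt
CDK1, chr10:60778228-60778527, plus strand: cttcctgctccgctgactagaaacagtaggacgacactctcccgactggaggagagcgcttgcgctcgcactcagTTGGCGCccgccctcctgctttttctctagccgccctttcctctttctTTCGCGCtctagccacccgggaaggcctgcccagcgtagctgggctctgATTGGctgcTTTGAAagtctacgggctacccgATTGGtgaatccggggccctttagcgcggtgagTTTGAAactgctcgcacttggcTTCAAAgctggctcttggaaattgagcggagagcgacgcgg
CDC25A, chr3:48188368-48188667, minus strand: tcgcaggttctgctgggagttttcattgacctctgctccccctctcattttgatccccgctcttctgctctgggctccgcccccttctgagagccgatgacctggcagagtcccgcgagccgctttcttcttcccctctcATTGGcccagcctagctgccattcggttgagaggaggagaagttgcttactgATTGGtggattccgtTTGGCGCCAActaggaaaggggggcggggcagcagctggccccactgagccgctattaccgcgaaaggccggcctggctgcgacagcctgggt
CDKN3, chr14:54396757-54397056, plus strand: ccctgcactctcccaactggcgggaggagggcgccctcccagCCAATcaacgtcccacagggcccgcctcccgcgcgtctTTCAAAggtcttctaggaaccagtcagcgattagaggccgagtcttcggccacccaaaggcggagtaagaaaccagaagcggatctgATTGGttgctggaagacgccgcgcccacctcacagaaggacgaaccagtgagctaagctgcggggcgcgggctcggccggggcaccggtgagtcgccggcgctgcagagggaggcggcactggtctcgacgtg
In the CCNB2 window a CHR begins 29 bases before the start, with CCAAT boxes beginning 54, 87 and 120 bases before it. The CDK1 window, that of the more downstream of 2 RefSeq starts, holds 3 CHR matches, 2 CCAAT boxes and 2 E2F elements. The CCNB1 window holds 2 CCAAT boxes and 1 E2F element, and no CHR of these letters. In the CDC25A window the 2 E2F matches overlap, 1 on each strand, and begin 43 and 40 bases before the start.

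CDK1 (chr10:60778331-60794852 in GRCh38.p14) fell with both siRNAs in both lines. In BE(2)-C, normalised intensities were 1828 to 2511 (median 2210.2) on the 6 control arrays, 1345 to 1728 (median 1542) with siRNA no. 1 and 1354 to 2154 (median 1520.4) with siRNA no. 2. All 6 arrays of siRNA no. 1 lay below all control arrays, while siRNA no. 2 overlapped with them through 1 high array at 42 h. The changes were -0.52 ± 0.071 and -0.45 ± 0.078 (adjusted p = 5.78e-06 and 0.000339), and the siRNAs themselves differed by -0.067 (95% interval -0.21 to 0.077, adjusted p = 0.655). In IMR-32, intensities were 1722 to 2246 (median 1803) in the control, 724 to 1278 (median 944) with siRNA no. 1 and 1406 to 1702 (median 1566) with siRNA no. 2, and neither siRNA overlapped with the control. There the changes were -1.01 ± 0.077 and -0.27 ± 0.064 (adjusted p = 3.33e-12 and 0.00439), so that siRNA no. 1 left 49.6% of the control level and siRNA no. 2 83.1%, a difference of -0.75 between the siRNAs (adjusted p = 2.91e-10). The second probe of CDK1 gave -0.48 and -0.38 in BE(2)-C and -0.93 and -0.28 in IMR-32 for siRNA no. 1 and no. 2.

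**Figure D2:**
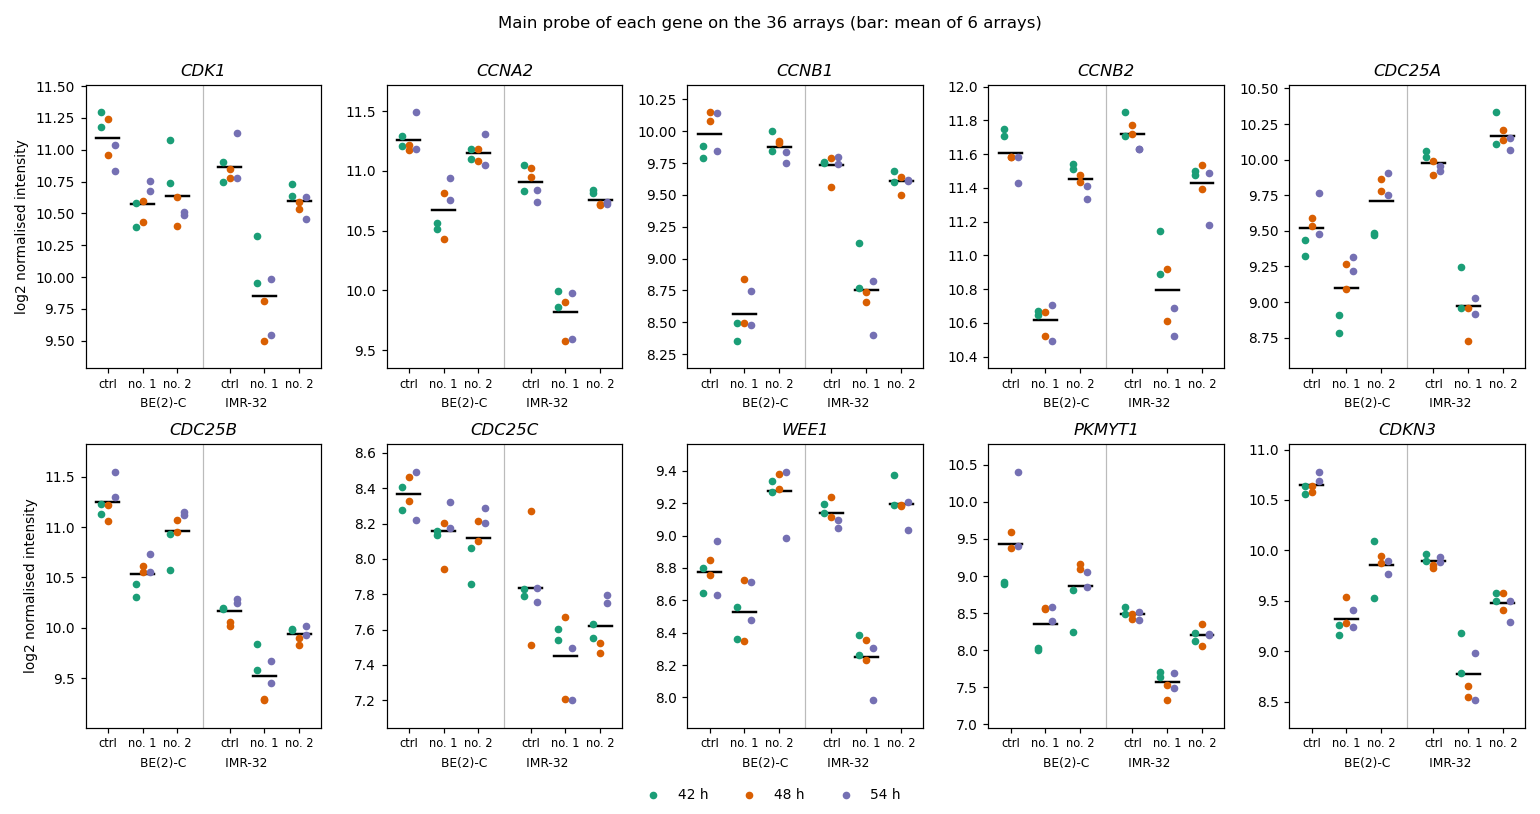
Log2 normalised intensity of the brightest probe of each gene on the 36 arrays, by cell line and siRNA (ctrl, negative control), with points coloured by time and a bar at the mean of 6 arrays; each panel has its own axis. The points of siRNA no. 1 lie below those of the control in both lines for every gene but CDC25C and WEE1. Those of siRNA no. 2 lie above the control for WEE1 in BE(2)-C and, narrowly, for CDC25A in IMR-32.

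The cyclins fell with siRNA no. 1 in each line, and with siRNA no. 2 CCNB2 alone of these 3 passed the test, in IMR-32. CCNB1, the main cyclin of mitotic entry, had intensities of 886 to 1136 (median 1014) in BE(2)-C controls, 327 to 457 (median 361) with siRNA no. 1 and 863 to 1026 (median 941) with siRNA no. 2. The arrays of siRNA no. 1 were far below the rest, and those of siRNA no. 2 overlapped with the control. Its change was -1.41 ± 0.076 (adjusted p = 3.1e-12) with siRNA no. 1, which is 37.5% of the control, and -0.10 ± 0.069 (95% interval -0.25 to 0.039, adjusted p = 0.507) with siRNA no. 2. In IMR-32, CCNB1 was 757 to 890.2 (median 862) in the control, 339 to 557 (median 432) with siRNA no. 1 and 726 to 825 (median 785) with siRNA no. 2. Again only siRNA no. 1 was separate from the control, with changes of -0.98 ± 0.069 (adjusted p = 4.98e-13) and -0.12 ± 0.059 (95% interval -0.24 to -0.0024, adjusted p = 0.267).

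CCNB2, the second B-type cyclin, had intensities of 2761 to 3443 (median 3069.9), 1441 to 1672 (median 1610.2) and 2582 to 2984 (median 2809.8) in BE(2)-C for the control and either siRNA in turn. Its changes there were -0.99 ± 0.065 (adjusted p = 6.84e-11) and -0.15 ± 0.063 (95% interval -0.28 to -0.023, adjusted p = 0.17). IMR-32 arrays gave 3175 to 3685 (median 3357), 1471 to 2263 (median 1774) and 2316 to 2968 (median 2857) in the same order. In that line both siRNAs lay below every control array. CCNB2 was the only one of these 3 cyclins whose fall with siRNA no. 2 passed the test there. It fell by 0.29 ± 0.061 (adjusted p = 0.00121), beside 0.92 ± 0.063 (adjusted p = 2.69e-13) with siRNA no. 1. CCNA2 stood at 2312 to 2876 (median 2372), 1377 to 1961 (median 1620.5) and 2120.1 to 2539.5 (median 2259) in BE(2)-C and at 1705 to 2113 (median 1909), 764 to 1023 (median 943) and 1676 to 1837 (median 1699) in IMR-32. The arrays of siRNA no. 1 were below all controls in both lines, and those of siRNA no. 2 overlapped with them. CCNA2 changed by -0.59 ± 0.075 (adjusted p = 2.21e-06) in BE(2)-C and -1.09 ± 0.068 (adjusted p = 4.26e-14) in IMR-32 with siRNA no. 1, and siRNA no. 2 gave -0.11 (95% interval -0.26 to 0.041) and -0.15 (95% interval -0.26 to -0.029).

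The CDC25 phosphatases, which activate CDK1, did not move as a block. CDC25B, held to start CDK1 activation at the centrosome, fell with both siRNAs. Its intensities were 2129.7 to 2997 (median 2391), 1263 to 1698 (median 1503) and 1522 to 2276 (median 2063) in BE(2)-C for the control, siRNA no. 1 and siRNA no. 2, and 1037 to 1249.6 (median 1168), 621 to 917 (median 732) and 909.9 to 1038 (median 991) in IMR-32. Only the arrays of siRNA no. 1 were free of overlap with the control. The changes were -0.72 ± 0.068 and -0.28 ± 0.075 (adjusted p = 2.68e-08 and 0.0175) in BE(2)-C and -0.65 ± 0.060 and -0.23 ± 0.056 (adjusted p = 2.29e-10 and 0.00638) in IMR-32. The call for siRNA no. 2 in BE(2)-C was lost without any 1 of the 5 replicate 2 arrays other than the control at 54 h, at values of -0.34 to -0.22 over the 12 arrays left out in turn.

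CDC25A, which acts from the entry into S phase onwards, went opposite ways with the siRNAs in IMR-32. There its intensities were 952 to 1069 (median 1007) in the control, 424 to 608 (median 496) with siRNA no. 1 and 1073 to 1289 (median 1133) with siRNA no. 2. The highest control array and the lowest array of siRNA no. 2 were almost equal, so these groups barely failed to overlap, while siRNA no. 1 was far lower. siRNA no. 1 left 49.9% of the control (adjusted p = 2.62e-14), and siRNA no. 2 gave a change of 0.19 ± 0.058 (adjusted p = 0.031), and the rise was not past the threshold in 7 of 12 leave-outs (0.16 to 0.20 where it was lost, adjusted p up to 0.149). The array left out was then the control at 42 h replicate 2, 48 h replicate 1, 54 h replicate 1 or 54 h replicate 2, or siRNA no. 2 at 42 h replicate 2, 48 h replicate 1 or 54 h replicate 2. It was also lost under median scaling (0.17, adjusted p = 0.138) and normexp background correction (0.20, adjusted p = 0.107). In BE(2)-C, CDC25A was 640.0 to 869 (median 727), 439.9 to 638 (median 570.3) and 710.2 to 959 (median 871) for the control, siRNA no. 1 and siRNA no. 2. siRNA no. 1 lay just below the control, with a change of -0.42 ± 0.068 (adjusted p = 5.06e-05). siRNA no. 2 overlapped with it at 0.19 ± 0.069 (adjusted p = 0.102), which passed the threshold in 1 of 12 leave-outs, that of the control at 54 h replicate 2 (0.24, adjusted p = 0.0238). The second probe of CDC25A gave -0.25 with siRNA no. 1 in BE(2)-C, -0.43 in IMR-32, and -0.015 and -0.049 for siRNA no. 2, so that the rise rests on the brightest probe.

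CDC25C, the family member best known for the final step into mitosis, had at its brightest probe the smallest change of the 10 genes with siRNA no. 1 in both lines. Its brightest probe, detected on 34 of 36 arrays, gave 299 to 360.2 (median 330.4), 246 to 320.4 (median 287) and 232 to 313 (median 284) in BE(2)-C and 183 to 309 (median 225), 147 to 204 (median 183) and 177 to 222 (median 193) in IMR-32, for the control and the siRNAs in turn. At this probe all groups overlapped with their controls. The changes were -0.21 ± 0.070 and -0.25 ± 0.071 (adjusted p = 0.0447 and 0.0303) in BE(2)-C and -0.38 ± 0.087 and -0.21 ± 0.078 (adjusted p = 0.00134 and 0.0983) in IMR-32. Under median scaling, the change with siRNA no. 2 in IMR-32 passed the test (-0.27, adjusted p = 0.0182). Its other 2 probes gave -0.38 and -0.40 in BE(2)-C and -0.52 and -0.57 in IMR-32 after siRNA no. 1, and both were detected on all 36 arrays. The one at -0.40 lay at 258 to 298 in BE(2)-C controls, above 189 to 244 and 211 to 235 with the siRNAs. The one at -0.52 lay at 191 to 219 in IMR-32 controls, above 129 to 164 and 156 to 188. It passed the test there with siRNA no. 2 as well (-0.23, adjusted p = 0.0121). In the other line, the one at -0.40 overlapped with the control for siRNA no. 2 and the one at -0.52 for both. The call in BE(2)-C was lost in 8 of 12 leave-outs for siRNA no. 1 (-0.23 to -0.16 where it was lost), all but those of the control at 48 h replicate 2 or 54 h replicate 1 and of siRNA no. 1 at 48 h or 54 h replicate 2, and in 7 of 12 for siRNA no. 2 (-0.26 to -0.20 where it was lost), all but those of replicate 1 at 42 h or replicate 2 at 48 h in either group and of the control at 54 h replicate 1. In IMR-32, siRNA no. 2 passed the threshold without the control at 48 h replicate 1, at -0.34 (adjusted p = 0.000284).

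The inhibitory kinases WEE1 and PKMYT1 both fell with siRNA no. 1 in both lines, and with siRNA no. 2 only PKMYT1 did. WEE1, which acts on CDK1 in the nucleus, had intensities of 398 to 501 (median 439.6) in BE(2)-C controls, 325 to 424 (median 367) with siRNA no. 1 and 507 to 673 (median 636) with siRNA no. 2. siRNA no. 1 overlapped with the control, and all 6 arrays of siRNA no. 2 were above all control arrays. Its changes were -0.25 ± 0.080 and 0.50 ± 0.079 (adjusted p = 0.0376 and 0.000136), the latter 141% of the control; the fall with siRNA no. 1 lost its call in 7 of 12 leave-outs (-0.26 to -0.18 where it was lost), all but those of a replicate 1 array of siRNA no. 1 or of the control at 42 h or 54 h replicate 2. It was also lost under median scaling (-0.26, adjusted p = 0.0973) and normexp background correction (-0.27, adjusted p = 0.0714). In IMR-32, WEE1 was 529 to 605 (median 559.5) in the control, 253 to 334 (median 312) with siRNA no. 1 and 524 to 663 (median 584) with siRNA no. 2. Here siRNA no. 1 was far below the control at -0.89 ± 0.061 (adjusted p = 3.1e-13), and siRNA no. 2 overlapped with it at 0.057 ± 0.059 (95% interval -0.062 to 0.18, adjusted p = 0.721).

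PKMYT1, the membrane-bound counterpart of WEE1, fell with both siRNAs in both lines. In BE(2)-C its control arrays spread from 477 to 1358, where replicate 1 at 54 h stood at 1358 and replicate 2 at 678, while siRNA no. 1 gave 257 to 385 (median 355) and siRNA no. 2 303 to 571 (median 498). All arrays of siRNA no. 1 were below the control, and those of siRNA no. 2 overlapped with it. The changes were -1.08 ± 0.11 and -0.56 ± 0.12 (adjusted p = 6.93e-08 and 0.00322), and without that high control array they were -0.91 and -0.40 (adjusted p = 7.51e-11 and 0.00339). In IMR-32, intensities were 338 to 384 (median 359), 160.0 to 208 (median 193) and 266 to 328 (median 296) for the control and the siRNAs in turn, with no overlap between either siRNA and the control. PKMYT1 changed there by -0.92 ± 0.059 and -0.28 ± 0.061 (adjusted p = 8.23e-14 and 0.00152). Its second probe gave -0.69 and -0.43 in BE(2)-C and -0.59 and -0.29 in IMR-32.

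CDKN3 fell with both siRNAs in both lines. BE(2)-C control arrays lay at 1509 to 1758 (median 1594), those of siRNA no. 1 at 574 to 743 (median 618) and those of siRNA no. 2 at 738 to 1092 (median 948). IMR-32 gave 908 to 997 (median 948), 366 to 581 (median 422) and 625 to 766 (median 725) in the same order. In both lines every siRNA array was below every control array. The changes were -1.33 ± 0.066 and -0.80 ± 0.081 (adjusted p = 8.95e-13 and 4.07e-07) in BE(2)-C and -1.12 ± 0.071 and -0.42 ± 0.059 (adjusted p = 4.9e-14 and 4.67e-06) in IMR-32, which left 39.8%, 57.6%, 46.2% and 74.9% of the control.

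Set directly against each other, the siRNAs differed for most of the group. RNA was lower with siRNA no. 1 than with siRNA no. 2 for 8 genes in BE(2)-C, all but CDK1 and CDC25C, and for 9 in IMR-32, all but CDC25C. No gene was higher. Over all probes, 9.55% and 8.89% were lower, and among probes detected on all arrays 29.7% and 27.4% were. The largest differences were those of CCNB1 in BE(2)-C, -1.31 ± 0.070 (adjusted p = 4.27e-14), and of CDC25A in IMR-32, -1.20 ± 0.065 (adjusted p = 6.54e-17). WEE1 differed by -0.74 ± 0.078 and -0.94 ± 0.064 (adjusted p = 1.85e-08 and 2.6e-14), and CDKN3, although lower with both, by -0.54 ± 0.079 and -0.70 ± 0.073 (adjusted p = 5.16e-06 and 1.15e-09). For CDC25C the intervals of the difference were -0.10 to 0.17 in BE(2)-C (adjusted p = 0.835) and -0.31 to -0.028 in IMR-32 (adjusted p = 0.0957). The call in IMR-32 was made by the probe with the largest F statistic instead of the brightest (-0.30, adjusted p = 0.000359), and also without siRNA no. 1 at 48 h replicate 2 or at 54 h replicate 2.

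**Figure D3:**
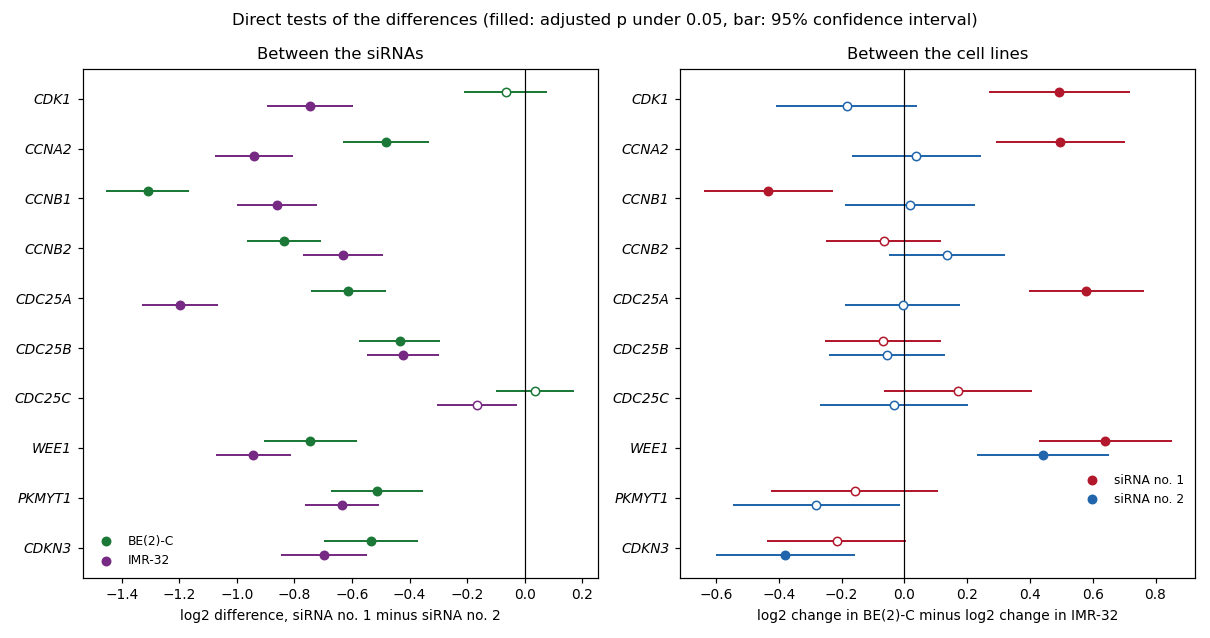
Left, log2 difference between siRNA no. 1 and siRNA no. 2 for each gene in BE(2)-C (green) and IMR-32 (purple); right, log2 change in BE(2)-C minus that in IMR-32 for siRNA no. 1 (red) and siRNA no. 2 (blue), with 95% confidence intervals and filled points where the adjusted p was below 0.05. CCNB1 in BE(2)-C at -1.31 and CDC25A in IMR-32 at -1.20 are the points farthest from 0 on the left, and WEE1 is filled for both siRNAs on the right.

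The cell lines differed in their change with siRNA no. 1 for 5 of the 10 genes. Of all probes 8.04% differed, and of those detected on all arrays 22.2% did. CDK1 fell less in BE(2)-C than in IMR-32, with a difference between the changes of 0.49 ± 0.11 (adjusted p = 0.00167). The same held for CCNA2 at 0.50 ± 0.10 (adjusted p = 0.00049), CDC25A at 0.58 ± 0.091 (adjusted p = 6.27e-06) and WEE1 at 0.64 ± 0.10 (adjusted p = 1.29e-05). CCNB1 went the other way and fell more in BE(2)-C, at -0.43 ± 0.10 (adjusted p = 0.00281), while the closely related CCNB2 gave -0.066 (95% interval -0.25 to 0.12). The second probe of CDC25A gave a difference of 0.18 (adjusted p = 0.407). With siRNA no. 2 only WEE1, at 0.44 ± 0.10 (adjusted p = 0.00757), and CDKN3, at -0.38 ± 0.11 (adjusted p = 0.0433), differed between the lines. Of all probes 2.99% did, and 8.05% of those detected on all arrays. The call of CDKN3 was lost in 19 leave-outs of the 36 arrays, those of the control and siRNA no. 2 arrays except siRNA no. 2 at 48 h and 54 h replicate 1 in IMR-32, siRNA no. 2 at 42 h and 54 h replicate 1 in BE(2)-C and the control at 54 h replicate 1 in BE(2)-C (-0.39 to -0.28 where it was lost, adjusted p up to 0.171). It was also lost with normexp background correction (-0.38, adjusted p = 0.142) and in the authors' processed value table (-0.37, adjusted p = 0.0546), and that of WEE1 was lost under median scaling (0.39, adjusted p = 0.0845). A difference of PKMYT1 passed the test without the control of BE(2)-C at 54 h replicate 2, with -0.33 for siRNA no. 1 (adjusted p = 0.0395) and -0.45 for siRNA no. 2 (adjusted p = 0.00526).

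The change was then compared between the harvest times. None of the 40 differences between the change at 54 h and that at 42 h (10 genes, 2 siRNAs, 2 lines) passed the test in limma (lowest adjusted p = 0.916), 3 of them had an unadjusted p below 0.05, and 0% of all probes passed in each of these 4 comparisons. Those 3 were CDK1 with siRNA no. 1 in both lines and CCNB1 with siRNA no. 1 in IMR-32, singled out after their values were seen. In BE(2)-C the change of CDK1 with siRNA no. 1 was -0.75 at 42 h, -0.58 at 48 h and -0.22 at 54 h. In IMR-32 it was -0.69, -1.16 and -1.19, and that of CCNB1 was -0.81, -0.98 and -1.16. The difference of PKMYT1 in BE(2)-C, -0.53 for siRNA no. 1 and -0.57 for siRNA no. 2, was called without the control at 54 h replicate 2 (-1.03 and -1.07, adjusted p = 0.00265 and 0.0201) and came to -0.030 and -0.072 without the control at 54 h replicate 1.

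At the single times, with 2 arrays against 2, siRNA no. 1 was below the control for 8, 7 and 6 genes at 42, 48 and 54 h in BE(2)-C, where 3.48%, 3.82% and 4.42% of all probes were, and for 9 genes at each time in IMR-32, where 3.19%, 4.04% and 4.11% were. At its brightest probe, CDC25C was the gene missing in IMR-32 at each time. At the probe with the largest F statistic it passed at all 3. With siRNA no. 2, 1, 2 and 2 genes were lower in BE(2)-C (0.976%, 1.26% and 1.98% of all probes), WEE1 was higher at 42 and 48 h (0.596% and 0.801%), and 1, 0 and 2 genes were lower in IMR-32 (0.799%, 1.13% and 2.15%). With 1 array left out, the genes lower with siRNA no. 2 were 0 to 2, 0 to 2 and 1 to 2 at these times in BE(2)-C and 0 to 1, 0 to 1 and 0 to 3 in IMR-32. In BE(2)-C, CDKN3 at 42 h was lost without replicate 2 of the control (-0.75, adjusted p = 0.0756) or of siRNA no. 2 (-0.51, adjusted p = 0.145), and CDC25B passed without siRNA no. 2 at 42 h replicate 1. At 48 h, CDK1 was lost without the control replicate 1 (-0.44, adjusted p = 0.303) or siRNA no. 2 replicate 2 (-0.47, adjusted p = 0.286), and CDKN3 without any 1 of the 4 arrays of that time (adjusted p up to 0.105). In IMR-32 at 54 h, CDK1 moved from -0.41 to -0.23 (adjusted p = 0.487) without the control replicate 2 and to -0.32 (adjusted p = 0.264) without siRNA no. 2 replicate 1, which also ended the call of CDKN3, and CCNB2 passed without siRNA no. 2 replicate 2. CDC25C passed at 48 h in IMR-32 without the control replicate 1. The change of PKMYT1 at 54 h in BE(2)-C, -0.95, came to -0.45 (adjusted p = 0.24) without the control at 54 h replicate 1, and was not called without siRNA no. 2 at 54 h replicate 1 (-0.85, adjusted p = 0.127) or replicate 2 (-1.05, adjusted p = 0.0665). The rule of the study's methods asks for an adjusted p below 0.05 at 2 or more times in 1 direction for a siRNA. By it, siRNA no. 1 lowered 7 genes in BE(2)-C cells and 9 in IMR-32 cells, where 3.52% and 3.44% of all probes were lower by it. CDC25A in BE(2)-C was not among the 7 but met it under 6 of 11 other settings. CDC25C, in neither count, met it under 4 of 11 in IMR-32 and 1 of 11 in BE(2)-C. Its other 2 probes both met it in IMR-32, and 1 of them in BE(2)-C. CDK1 in BE(2)-C, called at 42 and 48 h only, dropped out without the control at 48 h replicate 1 or siRNA no. 1 at 48 h replicate 2. With siRNA no. 2, CDKN3 fell and WEE1 rose in BE(2)-C (1.13% of all probes lower and 0.674% higher), and only CDKN3 fell in IMR-32 (0.991%). WEE1 in BE(2)-C no longer met the rule without any 1 of the 8 arrays of 42 or 48 h, when its change was 0.48 to 0.66 at the time affected, nor CDKN3 in IMR-32 in 9 of 12 leave-outs, all but those of siRNA no. 2 at 48 h or at 54 h replicate 2, when its change was -0.42 to -0.35 at 42 h or -0.41 at 54 h. CDKN3 with siRNA no. 2 in IMR-32 also failed the rule under 7 of 11 other settings, since its change at 42 h (adjusted p = 0.0482) did not pass with normalization within the line (adjusted p = 0.063), median scaling (0.284), normexp (0.212), the authors' processed intensities (0.0566), the replicate block within time points (0.0572), all 18 arrays of the line in the fit (0.119) or a threshold of 0.01. WEE1 in BE(2)-C failed it under 5 of 11, namely median scaling, normexp, the intensity trend, the replicate block within time points (0.0581 at 48 h) and a threshold of 0.01. CDK1 with siRNA no. 2 in BE(2)-C met it under median scaling, with all 18 arrays in the fit and with the block within time points. In the fit as described, CDKN3 was the single gene of the 10 that met this rule for both siRNAs, in each line, which 0.296% of all probes in BE(2)-C and 0.251% in IMR-32 did as lower. Its change with siRNA no. 2 was -0.79, -0.70 and -0.90 at 42, 48 and 54 h in BE(2)-C and -0.39, -0.35 and -0.52 in IMR-32.

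**Figure D4:**
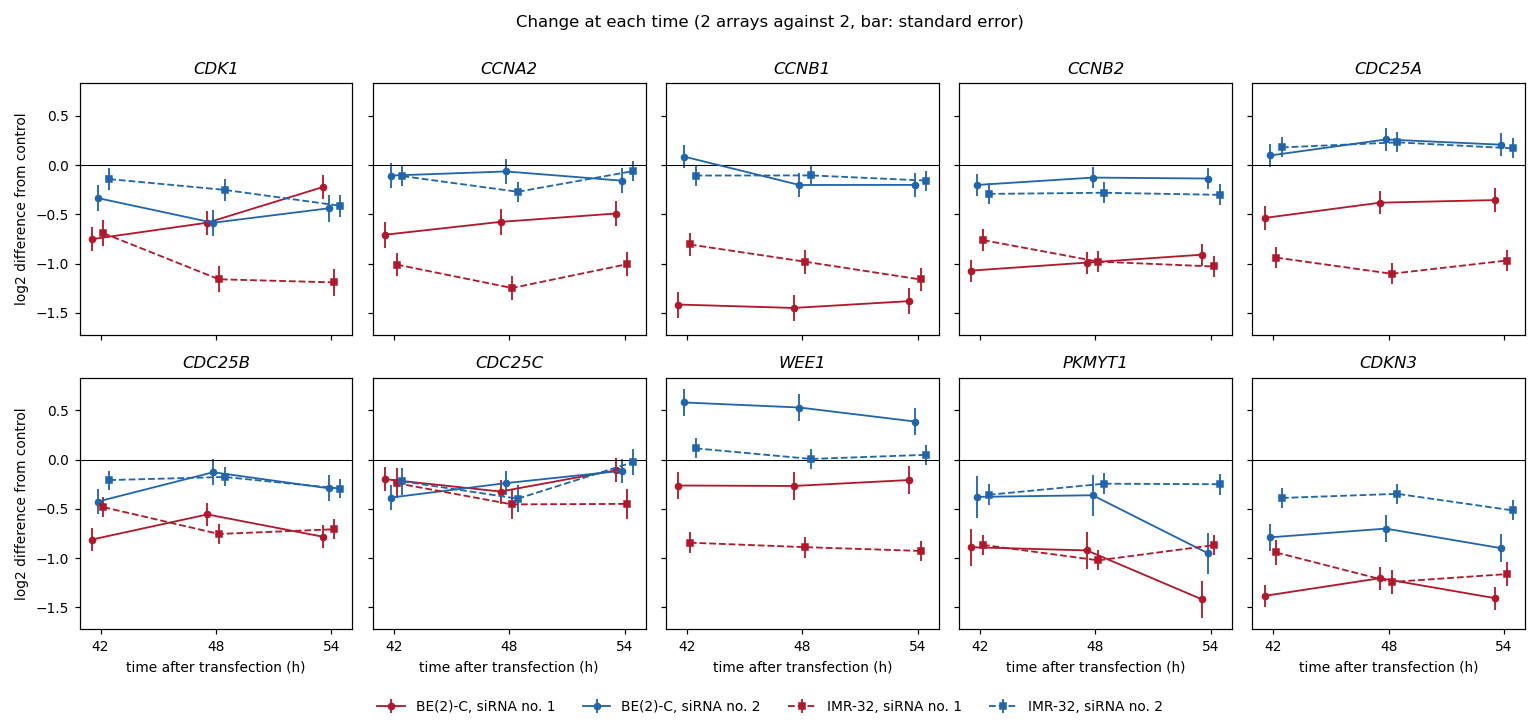
Log2 difference from the control at 42, 48 and 54 h for each gene, with standard errors, in BE(2)-C (solid, circles) and IMR-32 (dashed, squares) for siRNA no. 1 (red) and siRNA no. 2 (blue). The lines of CCNB1 and WEE1 for siRNA no. 1 and siRNA no. 2 stay apart at all 3 times, and CDK1 with siRNA no. 1 lies at -0.22 in BE(2)-C and -1.19 in IMR-32 at 54 h.

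Control cells of the lines differed in 9 of the 10 genes. BE(2)-C was higher than IMR-32 for 7 of them, where 14.3% of all probes were, and lower for 2, where 13.8% were. Among the probes detected on all arrays, 38.5% were higher and 32.7% lower. With 71.2% of those probes differing, such a count is common among detected probes. CDC25B was 1.08 higher on the log2 scale (adjusted p = 1.09e-19), PKMYT1 0.95 (adjusted p = 2.56e-12) and CDKN3 0.75 (adjusted p = 1.06e-11). CDC25A at -0.45 (adjusted p = 6.24e-08) and WEE1 at -0.36 (adjusted p = 7.09e-05) were lower in BE(2)-C. The second probe of CDC25A gave -0.076 (adjusted p = 0.555). The remaining differences were 0.53 for CDC25C, 0.35 for CCNA2, 0.25 for CCNB1 and 0.23 for CDK1. The call of CDK1 was also lost in 6 of 36 leave-outs, those of the IMR-32 control at 42 h replicate 1, 48 h replicate 2 or 54 h replicate 1 and of the BE(2)-C control at 42 h replicate 1, 48 h replicate 1 or 54 h replicate 2 (0.17 to 0.21 where it was lost). The differences of CCNB1 and CDK1 came to 0.077 and 0.089 with each line normalised separately and did not pass the test, and that of CCNB2 moved from -0.11 to -0.23 (adjusted p = 0.0039) and did. From 42 to 54 h, PKMYT1 in BE(2)-C was the only gene that changed in the control cells, at 1.00 ± 0.16 (adjusted p = 2.92e-05), where 5.98% of all probes changed, and it came to 0.50 (adjusted p = 0.0746) without replicate 1 at 54 h and to 0.25 (adjusted p = 0.331) for its second probe. In BE(2)-C controls, 4 of the 10 genes, PKMYT1 among them, had an unadjusted p below 0.05 in limma. There 19.5% of the probes detected on all arrays changed. In IMR-32 none of the 10 genes changed in limma, none had an unadjusted p below 0.05, and 0% of all probes changed.

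The partners of the CDK1 circuit moved less uniformly. Of 37 measured genes (the CDK-activating kinase, Cks proteins, other cyclins, mitotic entry and checkpoint kinases, Greatwall substrates, PP2A-B55 subunits, 14-3-3 proteins, CDK inhibitors, CDC14 phosphatases and factors that degrade WEE1 or CDC25), siRNA no. 1 lowered 15 and raised 5 in BE(2)-C and lowered 17 and raised 3 in IMR-32, where 7.5% and 7.35% of all probes were lower and 8.27% and 8.35% higher. siRNA no. 2 lowered 6 and raised 3 in BE(2)-C and lowered 9 and raised 1 in IMR-32, where 4.58% and 4.36% of all probes were lower and 4.24% and 3.83% higher. Among probes detected on all arrays, siRNA no. 1 lowered 23.9% and 22.1% and raised 24.2% and 24.1%, and siRNA no. 2 lowered 14% and 12.5% and raised 14.2% and 13.1%, so that the share of partners lowered by siRNA no. 2 in BE(2)-C was near that of detected probes and the share raised was below it. Under siRNA no. 1 their median change was -0.060 in BE(2)-C, against 0.0005 over all probes, and -0.15 in IMR-32, against 0.0012. Under siRNA no. 2 it was -0.044 and -0.0030, against 0.0031 and 0.0030. The genes that fell with both siRNAs in both lines were BORA, an activator of Aurora A, at -0.23 and -0.36 in BE(2)-C and -0.54 and -0.40 in IMR-32 for siRNA no. 1 and no. 2, and CCNF, a cyclin that acts in a ubiquitin ligase, at -0.32, -0.34, -0.60 and -0.41. In IMR-32 alone, the CDK inhibitor CDKN1B (-0.39 and -0.36), the Greatwall substrate ENSA (-0.26 and -0.24), the Cks protein CKS1B (-0.90 and -0.25) and the germline cyclin CCNA1 (-0.21 and -0.39), detected on 17 of 36 arrays, passed the test with both siRNAs; whether the lines differ in these was not tested.

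A few partners went in opposite directions with the siRNAs, and these were picked after their values were seen. The CDK inhibitor CDKN1A (p21) was at -1.16 with siRNA no. 1 and 1.27 with siRNA no. 2 in IMR-32 (adjusted p = 1.99e-15 and 7.13e-16), and at -0.25 and 0.42 in BE(2)-C (adjusted p = 0.0223 and 0.000463). ARPP19, a Greatwall substrate that restrains PP2A-B55, was at 0.71 and -0.50 in BE(2)-C and 0.42 and -0.35 in IMR-32. FBXW11, listed with the factors that degrade WEE1 or CDC25, was at 0.22 and -0.38 in IMR-32 (adjusted p = 0.00399 and 9.96e-06). In BE(2)-C it gave 0.061 (adjusted p = 0.674) and -0.38 (adjusted p = 0.000361). The mitotic kinases PLK1 and AURKA fell with siRNA no. 1 in both lines, at -0.28 and -0.83 in BE(2)-C and -0.61 and -0.85 in IMR-32. With siRNA no. 2 they rose in BE(2)-C, at 0.31 and 0.22 (adjusted p = 0.00369 and 0.0259), and gave 0.045 and 0.080 in IMR-32.

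**Figure D5:**
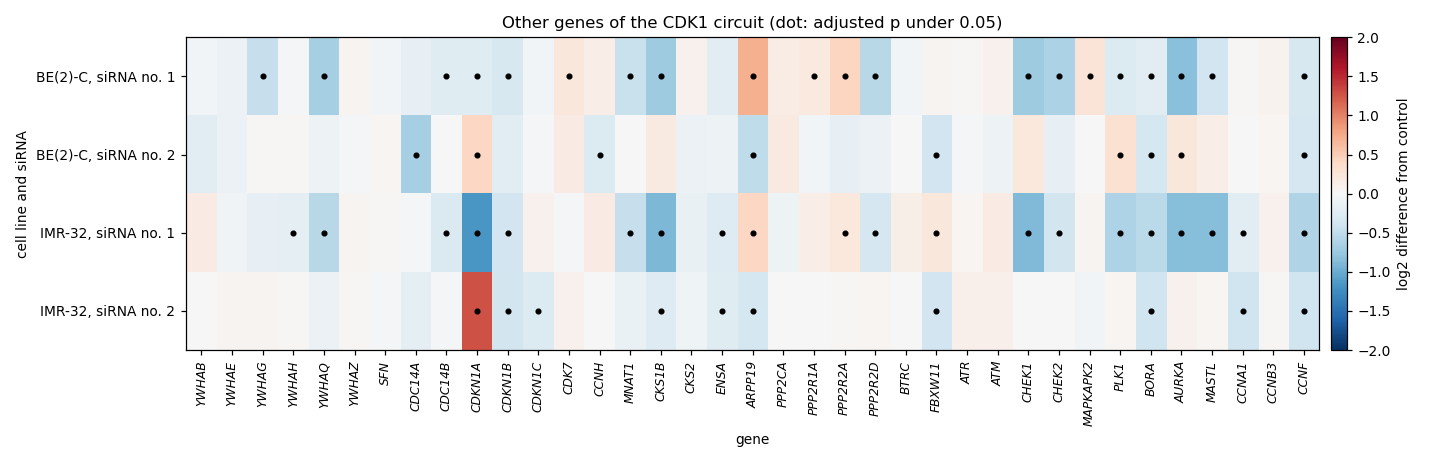
Log2 difference from the control, averaged over the times, of 37 other genes of the CDK1 circuit, by cell line and siRNA; blue is lower, red is higher, and a dot marks an adjusted p below 0.05. CDKN1A in IMR-32, at -1.16 with siRNA no. 1 and 1.27 with siRNA no. 2, is the strongest pair of opposite colours.

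The genes with the course nearest to that of CDK1 were sought by the root mean square difference over the 12 log2 changes (2 lines, 2 siRNAs, 3 times), among 7798 other genes detected on all arrays. The 5 nearest outside the group were HJURP at 0.14, NUSAP1 at 0.15, CEP55 at 0.15, EXO1 at 0.16 and KIFC1 at 0.17. Of the group itself CCNA2 was nearest, at 0.25 and rank 43, followed by CDC25B at rank 80 and CCNB2 at rank 108, while WEE1 came at 0.55 and rank 1369. For WEE1 the 5 nearest were OCIAD2 at 0.14, RFC5 at 0.19, MCM4 at 0.19, DIPK1A at 0.20 and C19orf48P at 0.21, with CDC25A at 0.22 and rank 8. CDKN3 was at 0.89 and rank 7427 from WEE1. The course of CDC25A was thus closer to that of WEE1 than to that of CDK1, from which it stood at 0.43 and rank 442. CDC25C was not ranked because its brightest probe was not detected on every array, and these are descriptions over 12 changes that share control arrays.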

How the data were processed

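RNA was measured on 36 Illumina HumanHT-12 bead arrays. The authors deposited 1 table of non-normalized probe intensities with a detection p-value for each probe and array, and a second table of intensities processed by them, in which scale and centring are not stated and which served as an alternative. No comparison columns of the authors were used. Probe symbols came from the platform annotation. Of 47323 probes, 3 with blank or 0 intensities were left out. Intensities of the 36 arrays were quantile normalized together without background correction and taken to log2 (limma 3.58.1 in R 4.3.3). For each siRNA and line, limma was fitted to the 6 siRNA and 6 control arrays with a mean for each siRNA and time, and the difference was averaged over the 3 times; differences between lines came from a fit of all 36 arrays. P-values were adjusted by Benjamini-Hochberg over 47320 probes, with a threshold of 0.05. The number of arrays limits the precision. Detected means a detection p below 0.01 together with a signal above the background. For a gene with several probes, the one with the highest mean log2 intensity over the 36 arrays was used. All 10 genes were named in full, and of the partner genes those called in 1 direction with both siRNAs in a line. The genes and lists were chosen with earlier results of these data known. The fits were tested on simulated data with known changes. Promoter windows are from RefSeq (GRCh38.p14), and plots used matplotlib 3.10.9 (Python 3.11.15). Alternatives were normalization within each line, median scaling, normexp background correction, the authors' processed intensities, leaving out dim probes, a replicate block, an intensity trend with a robust prior, all arrays of a line in 1 fit, a threshold of 0.01, another probe for a gene, the rule of 2 or more times, and leaving out each array.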

Additional observations from a re-analysis of the deposited data

Results flagged for a closer look

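For 7 results the test of the difference itself found that the change from the control was not the same in the lines (limma, 36 arrays, change in BE(2)-C minus change in IMR-32, adjusted p over all probes). With siRNA no. 1, this difference was 0.49 for CDK1 (adjusted p = 0.00167), 0.50 for CCNA2 (adjusted p = 0.00049), 0.58 for CDC25A (adjusted p = 6.27e-06) and 0.64 for WEE1 (adjusted p = 1.29e-05), all of which fell more in IMR-32, and -0.43 for CCNB1 (adjusted p = 0.00281), which fell more in BE(2)-C. With siRNA no. 2, it was 0.44 for WEE1 (adjusted p = 0.00757), which rose in BE(2)-C and changed by 0.057 in IMR-32 without passing the test, and -0.38 for CDKN3 (adjusted p = 0.0433), which fell more in BE(2)-C. Of all probes, 8.04% differed with siRNA no. 1 and 2.99% with siRNA no. 2. Among probes detected on all arrays, 22.2% and 8.05% did. The call of CDKN3 was lost in 19 leave-outs of the 36 arrays, with normexp and in the authors' processed intensities. That of WEE1 with siRNA no. 2 was lost under median scaling. The second probe of CDC25A did not pass the test with siRNA no. 1.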

How the results depend on the processing

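Over 15 comparisons of the 10 genes there were 66 calls, of which 55 were kept with each array left out and under 11 other settings, which count the 2 forms of the replicate block and leave out the rule of 2 or more times, and no direction was reversed. Under that rule, the genes changed by siRNA no. 2 fell from 6 to 2 in BE(2)-C and from 6 to 1 in IMR-32. The genes whose change by siRNA no. 2 differed between the lines fell from 2 to 1 under median scaling, normexp, the authors' processed intensities and a threshold of 0.01. The gene that differed between control cells at 54 and 42 h (1) was lost with the probe of the largest F statistic (0). The causes were not tested. With 1 array left out, the number of genes changed was 8 to 9 in BE(2)-C and 10 in IMR-32 for siRNA no. 1, 4 to 6 and 5 to 6 for siRNA no. 2, and 8 and 9 to 10 between the siRNAs. It was 5 to 6 and 1 to 2 for the difference between the lines with siRNA no. 1 and no. 2, 0 to 2 between the changes at 54 and 42 h, 8 to 9 between control lines and 0 to 1 between control times. Same-numbered replicates correlated in their deviations from the group means at r = -0.046 to 0.22, so the numbers were not taken as pairs, and the replicate block in either form gave the same 66 calls. At single times the block within time points ended the calls with siRNA no. 2 of CDKN3 at 42 h in IMR-32 (adjusted p = 0.0572) and of WEE1 at 48 h in BE(2)-C (0.0581), and added, among others, CDC25C with siRNA no. 1 in IMR-32 at 48 h (0.00282) and 54 h (0.0032). Signals of CDC25C and of the second probes of CDC25A and PKMYT1 lay near the background, which limits their precision, and normexp ended the calls of CDC25C and WEE1 with siRNA no. 1 in BE(2)-C, of CDC25B and CDC25C with siRNA no. 2 in BE(2)-C and of CDC25A with siRNA no. 2 in IMR-32. Median scaling ended those of WEE1 with siRNA no. 1 in BE(2)-C and of CDC25A with siRNA no. 2 in IMR-32, and the intensity trend those of CDC25C with siRNA no. 1 in both lines and with siRNA no. 2 in BE(2)-C (adjusted p = 0.0515).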
